A study of Mus musculus with 8 samples.

Results

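The phospholipase D transcripts Pld1, Pld2, Pld3 and Pld4 were examined in platelet RNA of mice with chronically raised TNF-α and of their littermates. The 4 genes were found by symbol among the 43548 genes in the deposited table, and all 4 had an entry. The family was chosen from measured values, because no TNFdARE mouse reached the Pld2 level of any control, so the genotype difference of Pld2 is given below as a description and carries no test. The question behind the comparison was how sustained TNF-α changes the platelet transcriptome.

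The table covered 4 TNFdARE mice, which carry a Tnf gene without the AU-rich elements that shorten the life of its mRNA, and 4 littermate controls without that deletion. All 8 mice were 8 to 12 weeks old and untreated ("Baseline"), on a C57BL/6J backcross, with 2 females and 2 males per genotype by their labels. Control mice 1 and 4 and TNFdARE mice 2 and 4 were female. The number of copies of the deletion is not given in the sources used here, and since it is present in every cell of the body, effects within megakaryocytes, the parent cells of platelets, cannot be told apart from effects of systemic inflammation. The descriptions of the mice contradict each other in places, with 3 mice per group in one field and 4 in another, and with a field on older male mice beside the stated weeks of age. The sex of each mouse stands under a tag meant for cell lines, so the sex comparisons below rest on that label alone. The values were read as FPKM, which scale a transcript's fragments to its length and to the size of the library, so levels of different genes can be set side by side.

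Phospholipase D enzymes of the classical kind, PLD1 and PLD2, cut phosphatidylcholine into choline and phosphatidic acid, a lipid that recruits and activates signalling proteins at membranes. PLD1 is nearly silent until small GTPases such as the Arf proteins or protein kinase C switch it on, PLD2 has a higher resting activity, and both need the phosphoinositide PIP2. In platelets, agonists such as thrombin and collagen raise phospholipase D activity, which has been tied to integrin activation and granule secretion. PLD3 and PLD4 carry the family's name but are membrane-anchored nucleases of endosomes and lysosomes that trim single-stranded nucleic acids and so limit signalling by Toll-like receptors.

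What the members share is the HKD motif of the catalytic centre, in which a histidine is followed after 1 residue by a lysine and after 4 more residues by an aspartate. The motif was searched in the reading frame of the longest coding sequence of each gene in GENCODE M21 (GRCm38), and the codons found are shown because this motif defines the family. Capitals mark the histidine, lysine and aspartate codons.
Pld1 motif 1: CATgagAAGcttgtcattatcGAC
Pld1 motif 2: CACagcAAGttgttaattgctGAC
Pld2 motif 1: CACgagAAGctcctggtggtaGAC
Pld2 motif 2: CACagcAAGatgctcattgcgGAT
Pld3 motif 1: CACaccAAGttctgggtggtgGAT
Pld4 motif 1: CACtccAAAttctgggttgtgGAT
Pld4 motif 2: CACagcAAGttcatggtcacaGAC
The Pld2 motifs lay in coding exons at chr11:70552737-70552760 and chr11:70555688-70555711 on the plus strand, from codons 442 and 767 of 944. Those of Pld1 lay at chr3:28076442-28076465 and chr3:28120786-28120809 on the plus strand. The Pld3 motif lay at chr7:27539404-27539427 on the minus strand, and those of Pld4 at chr12:112765048-112765071 and chr12:112768082-112768105 on the plus strand. Pld1 and Pld2 had identical bases at 16 of 24 positions in motif 1 and 19 of 24 in motif 2, and Pld3 and Pld4 at 21 of 24 in motif 1. Pld2 and Pld3 also shared 16 of 24 bases in motif 1, so that this stretch of Pld2 was no closer to Pld1 than to Pld3. Only 1 match was found in Pld3, which says no more than that these spaced residues occur once in its longest coding sequence. Of 21592 coding genes searched in this way, 3.44% held the motif at least once and 0.157% held it more than once.

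The members differed in genomic extent. Pld2 (ENSMUSG00000020828) spans 18047 bases at chr11:70540064-70558110 on the plus strand with 7 annotated transcripts, of which 5 are coding. Pld1 (ENSMUSG00000027695) spans 194668 bases at chr3:27938695-28133362 on the plus strand. Pld3 (ENSMUSG00000003363) occupies chr7:27532000-27553218 on the minus strand, and Pld4 (ENSMUSG00000052160) chr12:112760655-112768990 on the plus strand. The longest similar stretches between members were 73.1% identical over 391 bases for Pld1 and Pld2 and 78.4% identical over 167 bases for Pld3 and Pld4, and a stretch of 44 bases of a Pld4 transcript was 88.6% identical to Pld2.

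Some facts of the libraries touch every value that follows. The number of genes above 0 ranged from 1479 to 2742 in control mice and was 818, 3187, 4917 and 1225 in TNFdARE mice 1 to 4, so TNFdARE mice 1 and 4 stood lowest and TNFdARE mice 2 and 3 highest of the 8. The noncoding transcript AY036118 took 33.7% to 67.7% of the summed FPKM, and read numbers are not known. All 16 platelet and megakaryocyte markers passed the filter on low values, with summed FPKM of 1313 to 1798 in control and 1221 to 1371 in TNFdARE mice. Of the markers of nucleated blood cells, 7 of 11 for neutrophils, 6 of 10 for monocytes, 5 of 8 for B cells, 6 of 9 for T and NK cells and all 4 matched for plasmacytoid dendritic cells were listed at 0 in every mouse. Others were not: the myeloid gene Lyz2 was at 30.8 to 50.3 FPKM in controls and 11.9 to 35.8 in TNFdARE mice, above Pld2 in each mouse and lower in TNFdARE mice by the group means (log2 difference -0.94, SE 0.50, adjusted p = 0.86 in limma), with overlapping groups. The other tested monocyte marker, Ctss, was at 2.60 FPKM in control mouse 3, 7.08 in TNFdARE mouse 4 and 0 elsewhere. Its mean was higher in TNFdARE mice (log2 difference 0.29, SE 0.85, adjusted p = 0.95 in limma). The B cell gene Igkc reached 23.2 FPKM in control mouse 3 and the neutrophil gene S100a9 10.3 FPKM in TNFdARE mouse 4, and the part of leukocyte RNA in the Pld2 values was not tested. Tnf itself was listed at 0 in all 8 libraries, so the genotype labels could not be checked on it. Psmb6, a proteasome subunit that nearly all cells use, was also at 0 in all 8, so a 0 in this table need not mean absence of a transcript and is reported only as what is listed.

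Pld2 had the highest mean FPKM of the 4 phospholipase D transcripts. Control mice 1 to 4 had 19.6, 6.54, 9.50 and 5.79 FPKM. It was 2.81 and 2.08 in TNFdARE mice 2 and 3 and was listed at 0 in TNFdARE mice 1 and 4. Every TNFdARE mouse lay below every control mouse, with the lowest control at 5.79 and the highest TNFdARE mouse at 2.81, and control mouse 1 stood above the other controls. This separation is the reason the gene was picked. The mean of the controls was 10.4 ± 6.37 (SD, n = 4).

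**Figure D1:**
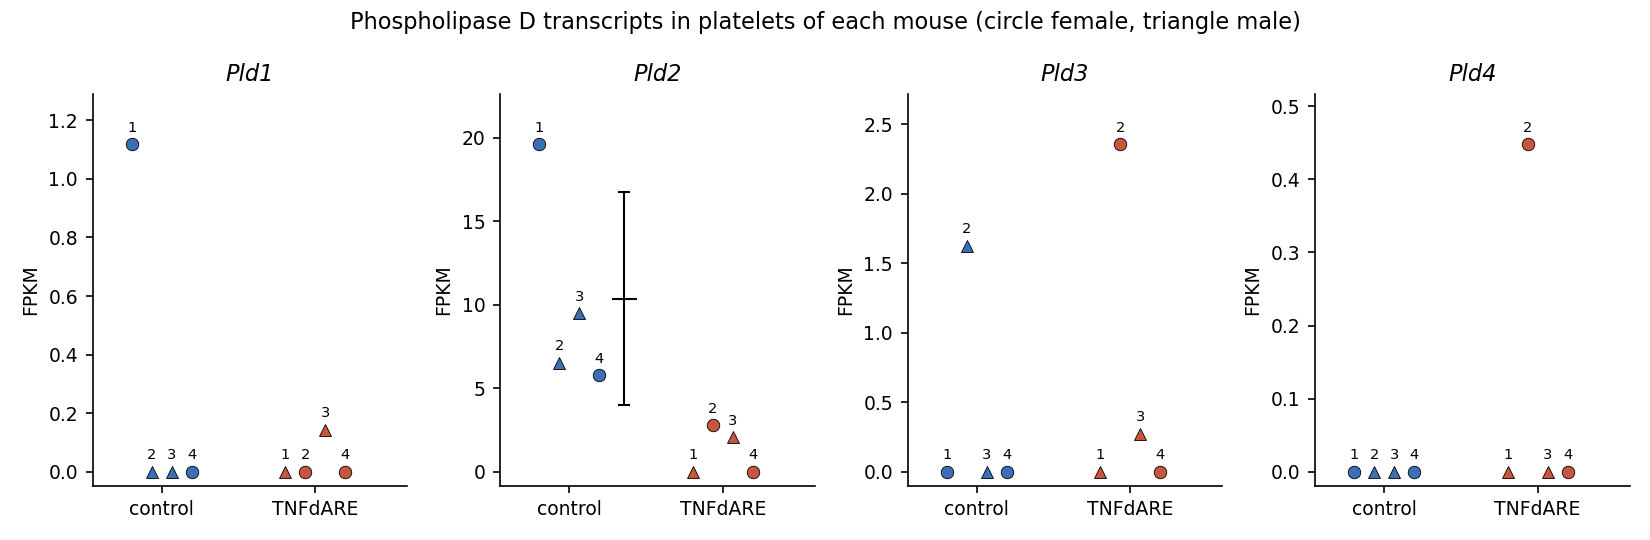
FPKM of each phospholipase D transcript (vertical axes, scaled separately) in control and TNFdARE mice; each point is 1 mouse with its number, circles are females and triangles males, and the bar gives the mean ± SD of a group with no value listed at 0. Pld2 lies between 5.79 and 19.6 FPKM in controls and between 0 and 2.81 in TNFdARE mice, while the other 3 members are at 0 in most mice.

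On the log2(FPKM + 1) scale the mean of Pld2 was 3.36 ± 0.72 in control and 0.89 ± 1.03 in TNFdARE mice (SD, n = 4 each), a difference of -2.47 with a standard error of 0.72 in limma. Because Pld2 was picked for this separation, that error is itself shaped by the choice, and no test is to be read from it. The pseudocount of 1 holds back the differences of low genes, and the Pld2 difference moved from -1.25 with a pseudocount of 5 to -4.21 with 0.1. The median difference of all 1534 genes tested was -0.30 on the same scale, and Pld2 lay at -2.18 relative to that median. Under quantile normalization the median was -0.12 and Pld2 lay at -2.35 relative to it.

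Among genes above 0 in the same library, Pld2 ranked higher than 76.9% to 83.2% in control mice. It ranked above 72.2% and 79.6% of them in TNFdARE mice 2 and 3. Its place among detected genes in these 2 mice was thus within or just below the control range, although its FPKM was below that of every control, and both libraries held more genes above 0 than any control. Set against the platelet markers, Pld2 amounted in control mice 1 to 4 to 13.5, 4.73, 5.28 and 4.42 FPKM for each 1000 FPKM of markers. The same quantity was 2.06 and 1.55 in TNFdARE mice 2 and 3 and 0 in the other two. The marker sums varied little between mice, so this scale repeats the separation for which Pld2 was picked. In bulk RNA, fewer platelets with the transcript and less of it per platelet cannot be told apart.

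The values of 0 fell in the libraries with the fewest detected genes. Of 772 tested genes above 0 in all 4 controls, 116 (15.0%) were listed at 0 in TNFdARE mouse 1 and also in TNFdARE mouse 4. Of the 299 such genes whose control mean lay between 5 and 20 FPKM, as that of Pld2 does, 30, Pld2 among them, were at 0 in both. The joint 0 of Pld2 was thus shared by about 1 in 10 genes of like control level. Without these 2 mice, a choice made after seeing the data, the Pld2 difference was -1.58. With the number of genes above 0 in each mouse as a covariate, the Pld2 difference was -2.60. TNFdARE mice held both the lowest (818 and 1225) and the highest (3187 and 4917) of these numbers. A straight-line covariate could therefore hardly move the difference, and nothing about detection is read from this fit. What else differs between the libraries was not tested.

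Erythroid transcripts stood high in the same 2 mice. The summed FPKM of the 9 erythroid markers in the table was 752 to 2204 in controls, 1111 and 2933 in TNFdARE mice 2 and 3, and 6929 and 14672 in TNFdARE mice 1 and 4. All 7 tested erythroid markers were higher in TNFdARE mice, with a median difference of 1.95. Of these, 6 had an unadjusted limma p under 0.05, where 1.76% of all genes tested were higher with one. None of the 7 had an adjusted p under 0.05. The part of these transcripts in the Pld2 values was not tested.

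**Figure D2:**
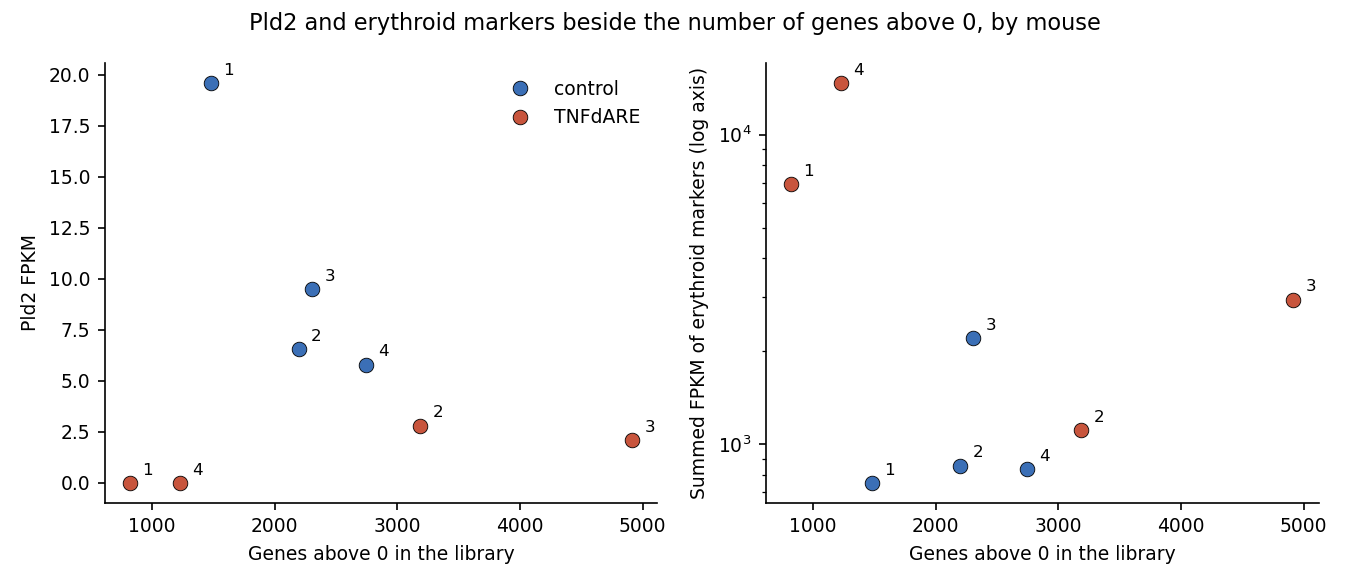
Pld2 FPKM (left) and summed FPKM of erythroid markers (right, log axis) against the number of genes above 0 in each library; each point is 1 mouse with its number. TNFdARE mice 1 and 4, with 818 and 1225 genes above 0, have Pld2 listed at 0 and the highest erythroid sums, 6929 and 14672, while TNFdARE mice 2 and 3 have more genes above 0 than any control and Pld2 at 2.81 and 2.08.

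The other members were near or at 0. Pld1, the GTPase-regulated enzyme, was listed at 1.12 FPKM in control mouse 1 and 0.145 in TNFdARE mouse 3, and at 0 in the other 6 mice. Pld3, the more widely expressed of the nuclease pair, was at 1.62 FPKM in control mouse 2, 2.36 in TNFdARE mouse 2 and 0.273 in TNFdARE mouse 3, and at 0 in 5 mice. Pld4, known chiefly from plasmacytoid dendritic cells, other myeloid cells and B cells, was at 0.448 FPKM in TNFdARE mouse 2 alone. The genotypes overlapped for Pld1, Pld3 and Pld4, and no single mouse had a value above 0 for all 4 members. TNFdARE mouse 2, with Pld2, Pld3 and Pld4 above 0, held 3 members, as did TNFdARE mouse 3 with Pld1, Pld2 and Pld3.

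Of the 4 members, Pld2 alone passed the filter of a mean of at least 1 FPKM over the 8 mice, with a mean of 5.79 over all 8 and of 1.22 over the TNFdARE mice. Pld1, Pld3 and Pld4 were therefore compared by the two-sided exact permutation test of mean log2(FPKM + 1), on which the mice listed at 0 are tied. With so many ties the smallest p the test can give is 0.43 for Pld1, 0.14 for Pld3 and 1 for Pld4, so none of the 3 could pass at 0.05. The difference was -0.22 for Pld1 (exact permutation p = 1), 0.18 for Pld3 (exact permutation p = 0.71) and 0.13 for Pld4 (exact permutation p = 1). With no filter and 6566 genes in the limma fit, the adjusted p was 0.66 for Pld1 (SE 0.27), 0.87 for Pld3 (SE 0.55) and 0.61 for Pld4 (SE 0.11). These values do not show that the 3 genes are alike in both genotypes. Where 6 or more of 8 libraries list a 0, as for Pld1 and Pld4, the comparison rests on 1 or 2 mice.

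In all 6 mice with Pld2 above 0, Pld2 was the highest of the 4 members. In control mouse 1, Pld2 was at 19.6 FPKM beside 1.12 for Pld1, and in control mouse 2 it was at 6.54 beside 1.62 for Pld3. In TNFdARE mouse 2 the values were close, with 2.81 for Pld2 and 2.36 for Pld3. TNFdARE mice 1 and 4 had all 4 members at 0.

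The count of members is to be read against the whole table. No gene of 1534 (0%) reached an adjusted limma p under 0.05 between genotypes, and the smallest adjusted p was 0.86. At an unadjusted p under 0.05, 42 genes (2.74%) were lower and 27 (1.76%) higher in TNFdARE mice. Every TNFdARE mouse lay below every control mouse for 38 genes (2.48%), of which Pld2 is 1, and this is the pattern that its choice fixed. Of the 299 genes with a control mean between 5 and 20 FPKM that were above 0 in all controls, 15 (5.02%) separated in this way.

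Sex was not used in the choice of Pld2. In controls, the females had 19.6 and 5.79 FPKM and the males 6.54 and 9.50. In TNFdARE mice, the females had 2.81 and 0 and the males 0 and 2.08. Each sex thus had 1 TNFdARE mouse with Pld2 above 0 and 1 at 0, and the female values of the controls enclosed the male ones. With genotype in the model, Pld2 was 0.28 higher in females than in males on the log2 scale (SE 0.77, 95% confidence interval -1.37 to 1.93, adjusted p = 0.97 in limma), with means of 2.26 and 1.98. The interval spans differences of over 1 in either direction, so the 8 mice do not show that the sexes have the same level. For sex, 39 genes (2.54%) had an unadjusted p under 0.05 and none an adjusted p under 0.05 in limma, with a smallest adjusted p of 0.95.

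The genotype difference of Pld2 was -2.60 in females and -2.34 in males, and the difference between these was -0.26 (SE 1.63, adjusted p = 0.98 for the interaction in limma). That Pld2 was lower in both sexes follows from the way it was picked, and the interaction compares only the sizes. For the interaction, 54 genes (3.52%) had an unadjusted p under 0.05 and none an adjusted p under 0.05, with a smallest adjusted p of 0.17. The sign of both the sex difference and the interaction of Pld2 turned when single mice were left out. The sex difference ranged from -0.078 to 0.69, and was below 0 without control mouse 1 (-0.06), TNFdARE mouse 1 (-0.016) or TNFdARE mouse 2 (-0.078). The interaction ranged from -1.22 to 0.71, and was above 0 without control mouse 1 (0.54), TNFdARE mouse 3 (0.55) or TNFdARE mouse 4 (0.71).

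The neighbours of Pld2 on chromosome 11 did not share its separation of groups. Gp1ba, which encodes the von Willebrand factor receptor subunit GPIbα and is a platelet marker, begins 81012 bases beyond the end of Pld2. Controls 1 to 4 had 15.0, 13.4, 9.32 and 6.39 FPKM and TNFdARE mice 1 to 4 had 7.43, 11.2, 12.4 and 11.2, with overlapping groups. The ratio of Pld2 to Gp1ba was 1.31, 0.490, 1.02 and 0.907 in the controls and 0.251 and 0.167 in TNFdARE mice 2 and 3. Pld2 was at a level like that of Gp1ba in 3 of the controls and well below it in every TNFdARE mouse. Gp1ba hardly differed between genotypes (log2 difference -0.013), so this ratio repeats the separation for which Pld2 was picked.

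Mink1, a Ste20-type kinase gene with a known role in platelet thrombus formation, begins 4771 bases beyond Pld2 on the same strand. Its FPKM was 4.36, 7.10, 8.81 and 5.01 in controls and 0, 5.13, 10.3 and 1.01 in TNFdARE mice 1 to 4. Mink1 was thus low in the 2 mice in which Pld2 was listed at 0, but lay within or above the control range in TNFdARE mice 2 and 3. Psmb6, 12206 bases before Pld2, and the antisense gene Gm12316 were at 0 in all mice, and Gm40193, the nearest gene on that side, had no entry among those analysed here.

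**Figure D3:**
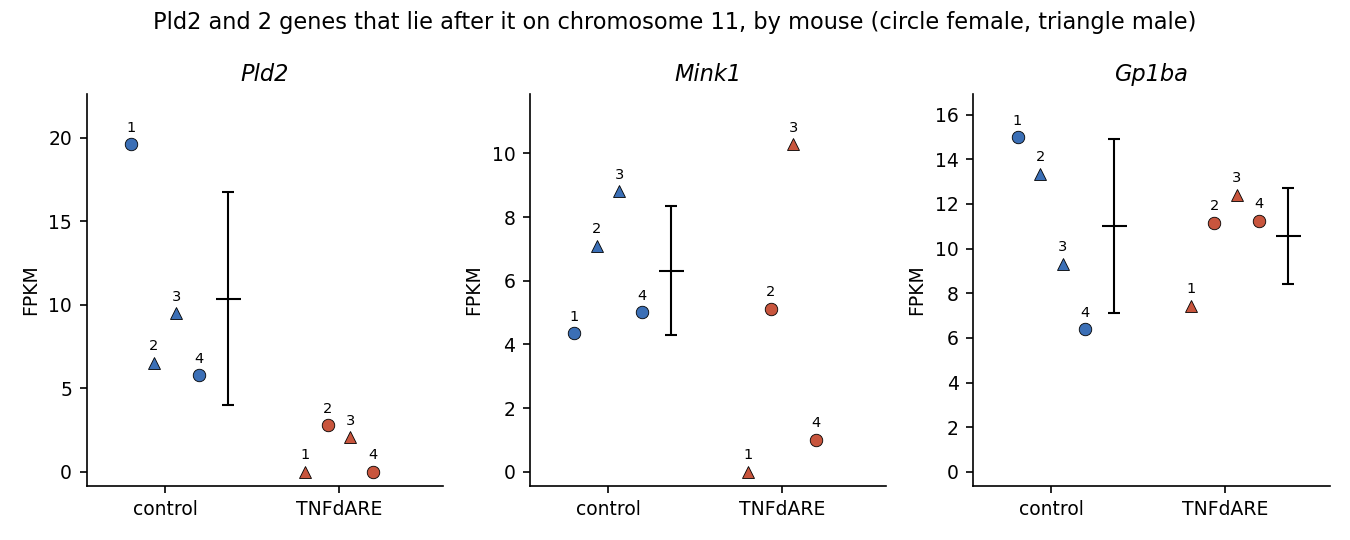
FPKM (vertical axes, scaled separately) of Pld2, Mink1 and Gp1ba in control and TNFdARE mice; each point is 1 mouse with its number, circles are females and triangles males, and the bar gives the mean ± SD of a group with no value listed at 0. Only Pld2 separates the groups, Mink1 is low in TNFdARE mice 1 and 4 (0 and 1.01), and Gp1ba overlaps between 6.39 and 15.0.

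The pseudogene Gm10418 lies on the minus strand across the start of Pld2, at chr11:70540023-70540600, and shares 438 of its 576 exon bases with Pld2 exons, all before the first coding base of Pld2 at position 70540846. Whether the authors' counting used strand is not given in the sources used here, so reads from this stretch could have been assigned to either gene. Gm10418 was at 1.23 FPKM in TNFdARE mouse 2 and at 0 in the other 7, and the part of such reads in the Pld2 values was not tested. At 90% identity over at least 100 bases, transcripts of 29 other genes shared a stretch with a Pld2 transcript, among them Echs1 and Gm26947 (90.6% over 171 bases each) and Llph (90.1% over 151 bases). These 3 matched the same coding isoform of Pld2. No such stretch was found for Pld3 or Pld4, and for Pld1 none in a coding transcript, although a transcript of Pld1 with a retained intron matched parts of 758 genes.

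The genes whose values ran most like those of Pld2 were found by Pearson correlation of log2(FPKM + 1) over the 8 mice among 582 other genes with a mean of at least 5 FPKM. The correlation is a description across mice that also share library size and genotype, and nothing follows from it about function. The closest was the processed pseudogene Gm15427 (r = 0.98), with 28.4, 7.91, 10.1 and 4.68 FPKM in controls and 0, 4.58, 3.10 and 0.463 in TNFdARE mice 1 to 4. It had its highest value in control mouse 1 and its lowest in TNFdARE mouse 1, as Pld2 did, and separated the groups by a narrow gap. The noncoding RNA Gm17275 followed (r = 0.95), at 168 to 249 FPKM in controls and 104 to 187 in TNFdARE mice. The processed pseudogene Gm3470 (r = 0.94) ran from 17.6 to 63.0 FPKM in controls and from 0 to 16.1 in TNFdARE mice.

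Of protein-coding genes, R3hdm2, which encodes an R3H-domain protein, was most like Pld2 (r = 0.94), at 3.78 to 32.2 FPKM in controls and 0 to 4.45 in TNFdARE mice. Focad, which encodes focadhesin, came next (r = 0.93), at 127 to 183 FPKM in controls and 38.7 to 131 in TNFdARE mice. All 5 of these genes had their highest value in control mouse 1 and their lowest in TNFdARE mouse 1, shared in 2 genes with TNFdARE mouse 4 at 0. The groups overlapped for Gm17275, R3hdm2 and Focad. The shared highest and lowest mice, and the separation in Gm15427 and Gm3470, follow largely from picking these genes for their likeness to Pld2.

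To place Pld2 among its regulators and among the other enzymes of phosphatidic acid, 7 lists of 70 genes in all were examined. Of these genes, 12 passed the filter and were tested, 9 of them lower and 3 higher in TNFdARE mice, with a median difference of -0.38 against -0.30 over all genes tested. None had an adjusted p under 0.05, none was lower with an unadjusted p under 0.05, against 2.74% of all genes tested, and 1 of 12 (Arf5) was higher with one, against 1.76%. A single call among 12 genes is not a result about the lists. All differences and errors in the following 3 paragraphs are limma values on the log2(FPKM + 1) scale.

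The activators of phospholipase D were the best represented list, with 15 of 16 genes above 0 in some mouse and 6 tested, 5 lower and 1 higher, at a median of -0.27. Arf5, an ADP-ribosylation factor of the Golgi, was at 0, 1.61, 4.35 and 4.78 FPKM in controls and 27.9, 9.71, 5.09 and 12.3 in TNFdARE mice. Every TNFdARE mouse was above every control mouse, by 5.09 against 4.78 at the closest point. The share of all genes that separated in this direction is not given here, so nothing is read from the separation of Arf5. The Arf5 difference was 2.07 (SE 0.75, unadjusted p = 0.016, adjusted p = 0.86), and without TNFdARE mice 1 and 4 it was 1.43 with an unadjusted p of 0.12. Without control mouse 1, in which it was listed at 0, it was 1.54 with an unadjusted p of 0.052.

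Rac1, a small GTPase needed for platelet lamellipodia, had the highest mean of the list at 10.7 FPKM. Its values were 9.25, 7.17, 12.5 and 21.5 FPKM in controls and 6.84, 12.8, 10.8 and 4.76 in TNFdARE mice, with overlapping groups and a difference of -0.45 (SE 0.58, adjusted p = 0.87) that was -0.17 without control mouse 4 and -0.22 without TNFdARE mouse 4. Prkcq, the protein kinase C isoform theta, was at 7.48, 1.82, 3.21 and 2.47 FPKM in controls and 0, 3.26, 2.30 and 0 in TNFdARE mice. Its 0 values fell in the same 2 mice as those of Pld2, but TNFdARE mice 2 and 3 lay within the control range, and the difference was -1.16 (SE 0.75, adjusted p = 0.86), which shrank to -0.22 with sample weights and -0.21 without TNFdARE mice 1 and 4. Arf1 (-0.25, SE 0.72), Arf3 (-0.30, SE 0.68) and Cdc42 (-0.22, SE 0.72) lay near the median of all genes, and each had a sign that turned under another setting. Pip5k1c, which makes PIP2 and was the 1 tested gene of 6 on that list, had a difference of 0.44 (SE 0.80) that also turned, to -0.29 with sample weights, and that was 0.25 without any 1 of control mice 1, 2 and 3 and 0.67 without TNFdARE mouse 4.

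Of the other routes to phosphatidic acid, 2 of 18 genes were tested, at a median of -1.02. Dgkz, a kinase that phosphorylates diacylglycerol to phosphatidic acid, was at 4.87, 3.95, 7.04 and 10.1 FPKM in controls and 0, 3.22, 2.32 and 3.31 in TNFdARE mice. The groups did not overlap, as for Pld2, but by the smaller gap of 3.95 to 3.31. Of all 1534 genes tested, 38 (2.48%) separated in this direction. The Dgkz difference was -1.35 (SE 0.69, adjusted p = 0.86), or -0.86 without TNFdARE mouse 1, in which it was listed at 0. Dgkd, another diacylglycerol kinase, differed by -0.68 (SE 0.76), or -1.08 without control mouse 1 and -0.18 without TNFdARE mice 1 and 4. Of the enzymes that use up phosphatidic acid, Lpin2, a phosphatase that turns it into diacylglycerol, was at 1.57, 5.56, 8.03 and 4.58 FPKM in controls and 0, 3.02, 2.61 and 0 in TNFdARE mice, a difference of -1.47 (SE 0.76, adjusted p = 0.86) with overlapping groups, which shrank to -0.78 with sample weights and -0.50 without TNFdARE mice 1 and 4. Cds2, which turns phosphatidic acid into CDP-diacylglycerol, was at 1.55, 4.95, 3.61 and 2.72 FPKM in controls and 5.26, 9.48, 2.78 and 20.1 in TNFdARE mice, a difference of 1.08 (SE 0.68, adjusted p = 0.86) with overlapping groups, which was 0.65 without TNFdARE mouse 4. Plcg1, 1 of 10 other signalling phospholipases and the only one tested, differed by -0.78 (SE 0.91), a value that rests on 14.3 FPKM in control mouse 2 with the other controls at 0.

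The lists nearest to the members by structure or place were hardly detected. Of the other HKD genes Pld5, Pld6, Pgs1 and Tdp1, only Pgs1, a mitochondrial phospholipid synthase, was above 0 in any mouse, with at most 0.666 FPKM. Of 8 genes of endolysosomal nucleic acid handling, the setting of PLD3 and PLD4, 3 were above 0 in some mouse and none passed the filter. Pld2 was therefore the only member of the wider HKD group with a mean of at least 1 FPKM.

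**Figure D4:**
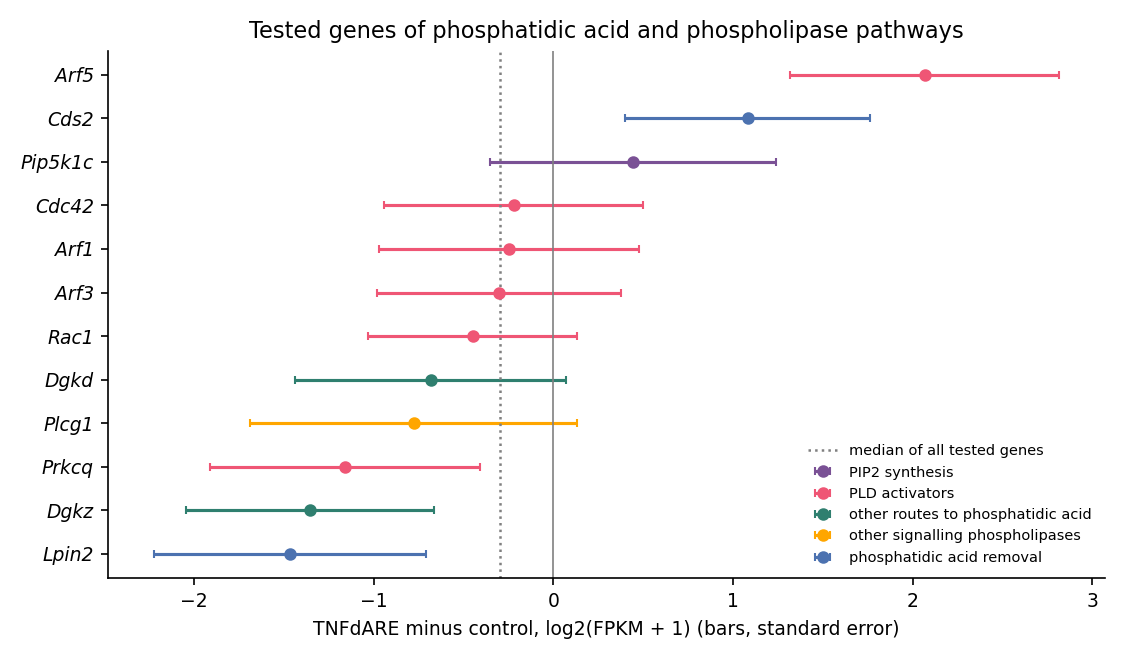
Difference between TNFdARE and control mice (horizontal axis, log2(FPKM + 1), bars give the standard error) for the 12 tested genes of the phosphatidic acid and phospholipase lists, coloured by list; the dotted line marks the median of all genes tested, -0.30. Arf5 lies furthest to the right at 2.07 and Lpin2 furthest to the left at -1.47, and Pld2, at -2.47, is not drawn because it was selected on this value.

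The size of the Pld2 difference depended on the scale more than on any single mouse. Leaving out each mouse in turn gave -2.82 to -2.14, and over 22 alternatives the value lay between -4.21 and -1.25. The groups of Pld2 stayed apart in every setting. For other pseudocounts, filters, models and left-out mice this follows from the way Pld2 was picked. Rescaling could have changed it, since the 38 genes that separated became 21 under quantile normalization. The values are still those used in the choice, so the separation is no sign of stability.

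**Figure D5:**
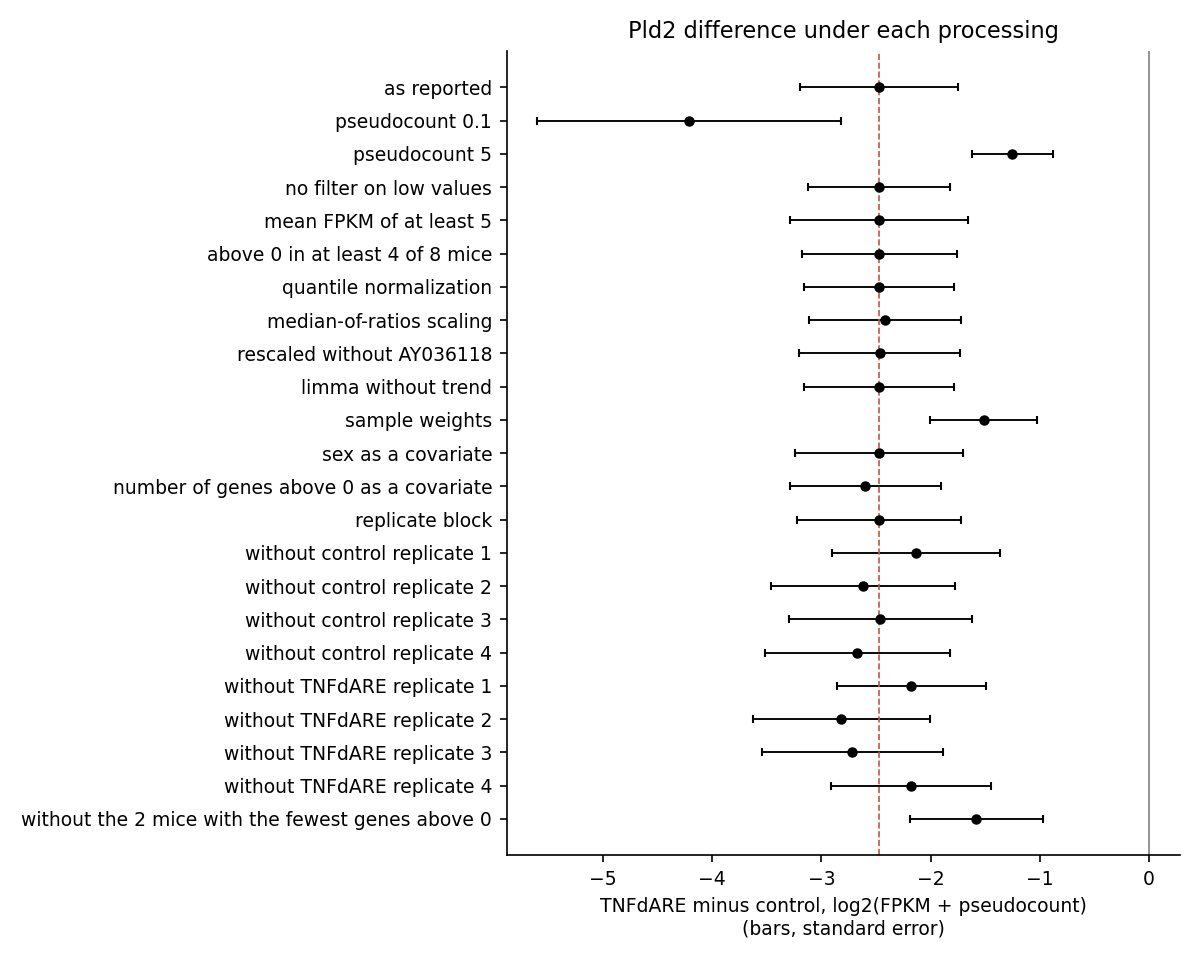
Pld2 difference between TNFdARE and control mice (horizontal axis, log2 of FPKM plus the pseudocount, bars give the standard error) as reported and under each of 22 other settings; the dashed line marks the reported value of -2.47. The values furthest from it are -4.21 with a pseudocount of 0.1, -1.25 with 5, -1.52 with sample weights and -1.58 without TNFdARE mice 1 and 4. The bars carry no test, since Pld2 was picked on these values.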

How the data were processed

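RNA of washed platelets from 4 TNFdARE and 4 littermate control mice was sequenced. The values the authors deposited, 1 for each gene in each mouse, were read as FPKM, since the submitters' processing notes name Cufflinks and mm10 and the columns sum to different totals. Versions, annotation, strand use and the handling of multiply mapped reads are not given in the sources used here. FPKM are not counts, no step worth 1 read was found in low values, and depth is unknown, so no interval from counting is given and no count model was used. Columns were matched by the library names in the labels, and 0 value columns were left unmapped. Every value listed at 0 entered the fits as 0. Exact duplicates were looked for, and the most similar pair of mice had r = 0.88 over log2 values.

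Genes with a mean of at least 1 FPKM (1534) were fitted in limma 3.58.1 (R 4.3.3) as log2(FPKM + 1), with a trend and Benjamini-Hochberg adjustment over all of them at 0.05. Members below that filter were compared by an exact permutation test. Female and male mice were compared with genotype in the model, and the interaction from cell means. The p-values measure the spread between these mice. The limma and permutation steps were tested on simulated data. Alternatives were other pseudocounts, filters, scalings, variance models and covariates, the replicate number as a block, and leaving out each mouse.

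The members and lists were chosen with earlier results of these data known. Genes named are the members, tested list genes with an unadjusted p under 0.05 or a mean of at least 10 FPKM, otherwise up to 2 tested genes per list of highest mean, neighbours and overlapping genes of Pld2, genes of similar sequence, the 5 genes most correlated with Pld2, and AY036118. Prkcq, Arf1, Arf3 and Cdc42 lie outside this rule or were named after their values were seen, to give every tested list gene. Tnf and the HKD genes Pld5, Pld6, Pgs1 and Tdp1 also lie outside it. So do the markers Lyz2, Ctss, Igkc and S100a9, which were named for their values. Identifiers were matched to GENCODE M21 (42384 of 43548), and stretches shared between its transcripts were found with BLAST 2.17.0. Of the marker lists, Ahsp and Irf8 had no match. Plots used matplotlib 3.10.9 and Python 3.11.15. The spatial data of bone marrow were not analysed here.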

Additional observations from a re-analysis of the deposited data

Results flagged for a closer look

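In 13 of 48 groups of 4 mice examined on the FPKM scale, the mouse at one end lay far from the other 3, with a gap to its nearest neighbour that took more of the group's range than Dixon's critical value at 95%. For normally distributed values, chance alone flags about 1 group in 20, but that rate does not apply to these FPKM, since 8 of the 13 groups had 3 mice tied at 0, which fixes the ratio, and on the log2(FPKM + 1) scale only 1 of the other 40 groups held such a mouse. The 13 cannot be read as an excess over chance. The gap took the whole range (a value of 1) for Pld1 in control mouse 1 and in TNFdARE mouse 3, Pld3 in control mouse 2, Pld4 in TNFdARE mouse 2, Pip5k1c in control mouse 4, Plcg1 in control mouse 2 and in TNFdARE mouse 2, and Gm10418 in TNFdARE mouse 2, since in each the other 3 mice were listed at 0. It was 0.884 for Pld3 in TNFdARE mouse 2, 0.881 for Pip5k1c in TNFdARE mouse 1 and 0.834 for Dgkd in control mouse 3. It was 0.87 for R3hdm2 and 0.868 for Focad, both in control mouse 1, the mouse with the highest Pld2, and these 2 genes were picked for their likeness to Pld2 over the same mice. The groups of Pld2 itself held no such mouse.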

How the results depend on the processing

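The Pld2 difference of -2.47 was -4.21 with a pseudocount of 0.1, -1.25 with 5 and -1.52 with sample weights, and -2.82 to -2.14 with single mice left out. The median of all genes was -0.011 with sample weights, which leaves Pld2 at -1.50 relative to it. No gene reached an adjusted p under 0.05 in any of 22 alternatives. The 42 genes lower and 27 higher at an unadjusted p under 0.05 became 20 and 16 with a mean of at least 5 FPKM, 29 and 31 under quantile normalization, 37 and 74 with sample weights, 73 and 33 with a covariate for how many genes each mouse had above 0, 21 to 54 and 12 to 35 with single mice left out (27 lower without control mouse 4, 21 without TNFdARE mouse 4, 12 higher without control mouse 1), and 11 and 40 without TNFdARE mice 1 and 4, an alternative chosen after seeing the data. The 38 genes with all TNFdARE mice below all controls became 18 with a mean of at least 5 FPKM, 21 under quantile normalization, 45 to 81 with single mice left out, where fewer mice need to separate, and 69 without TNFdARE mice 1 and 4. List genes lower at an unadjusted p under 0.05 went from 0 to 1 with sample weights (Dgkz), with the covariate (Lpin2) and without control mouse 1 (Lpin2), a range of 0 to 1. List genes higher went from 1 to 0 with sample weights, without control mouse 1 and without TNFdARE mice 1 and 4, a range of 0 to 1. Arf5 was 1.04 with sample weights, and with them Cds2 was 0.47 and Dgkd -0.25.

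Signs turned for the following genes, where each range covers only the fits with single mice left out: Pld1 (0.049 without control mouse 1, range -0.31 to 0.049), Pld3 (-0.23 without TNFdARE mouse 2, range -0.23 to 0.52), Arf1 (0.13 without control mouse 1, range -0.64 to 0.13), Arf3 (0.13 under quantile normalization, 0.31 with sample weights, 0.037 without TNFdARE mouse 4, 0.21 without TNFdARE mice 1 and 4, range -0.50 to 0.037), Cdc42 (0.27 with sample weights, 0.028 without either TNFdARE mouse 1 or 4, 0.53 without both, range -0.54 to 0.028 over the 4 such fits in which it passed the filter), Rac1 (0.014 without TNFdARE mice 1 and 4) and Pip5k1c (-0.29 with sample weights). The Pld2 sex difference ranged from -0.078 to 0.69 and the interaction from -1.22 to 0.71 with single mice left out, and the interaction was 0.17 with sample weights. The cause of these shifts was not tested.

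With the replicate number as a block, Pld2 was -2.47, which the balanced design fixes, and 43 genes were lower and 21 higher. Same-numbered mice had correlations of -0.067 to 0.060 in their deviations from the group means, which gives no sign that the numbers pair the mice. The library names share a number between control mouse 1 and TNFdARE mouse 1 (correlation 0.060) and between control mouse 4 and TNFdARE mouse 3 (0.042). Such correlations cannot exclude shared litters or cages, and a pairing by litter was not tested. The sex and interaction fits were not run with the block. The unknown depth limits all values near 0, above all those of Pld1, Pld3 and Pld4.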
